A study of Ovis aries with 91 samples.

Results

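Described here are 3 sheep genes, ENSOARG00000015333, ENSOARG00000014321 and ENSOARG00000010633, 3 of the 13187 genes listed for whole tissue of the atrial appendages. They were chosen by their values in that tissue: they are the genes, 3 of 12333 tested (0.0243%), whose change from control to the transition state differed between the left and the right appendage at an adjusted p below 0.05. Whole tissue values are therefore given as a description, and any adjusted p printed for them describes the fit and is not a test of these genes. The tests below use isolated cardiomyocytes and the posterior left atrium, which were not part of the whole tissue comparison that chose the genes. Whether their values also bore on the choice is not known, so a missing call there is not independent support. All 3 genes were listed among 13262 genes in cardiomyocytes, and ENSOARG00000014321 and ENSOARG00000010633 among 12141 genes in the posterior left atrium. The identifiers carry no gene names in the files, and 0 of 13803 identifiers matched a symbol in the gene table used, so no function, position or sequence is given for these genes, and lists of cell type markers, which are written as symbols, were not used here.

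RNA sequencing was done on atria of 18 sheep in which atrial fibrillation was induced by a pacing device that drives the right atrium at a high rate, or which served as controls. The labels give 3 states, namely sham or control, transition and chronic, and do not give the sheep's ages or the time of pacing. In whole tissue each appendage had 3 control sheep (S3 and S4, labelled sham, and C1, labelled control), 3 transition sheep (D24, D27 and D30) and 3 chronic sheep (D15, D16 and D19). In isolated cardiomyocytes, the contractile muscle cells taken out of the tissue, the control sheep were the same, the transition sheep were D23, D24 and D27, and the chronic sheep were D16, D19 and D20. The posterior left atrium, sampled as whole tissue, had 6 control sheep (S3, S4, C1, G21, G32 and G36) and 6 transition sheep (D24, D27, G5, G13, G26 and G34), the G animals having given no appendage sample. The titles of the 4 G sheep of the transition group also carry the word saline.

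Atrial fibrillation is a rapid, irregular activation of the atria that tends to become more persistent the longer it lasts, a process called remodelling, in which ion channels, metabolism and the extracellular matrix of the atrial wall change. The left and right appendages are blind pouches of the atria that already differ in gene expression in the healthy heart, because the left atrium is patterned separately during development. Whole tissue holds muscle cells together with fibroblasts, vessel cells, immune cells, fat and the linings of the wall, whereas a preparation of isolated cardiomyocytes is enriched for muscle cells. In bulk samples like these, fewer cells of a type and less RNA per cell cannot be told apart.

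All 3 genes were low in abundance. Values are log2 CPM (read counts scaled to library size) as deposited, in which 0.5 reads are added before the logarithm, and the reads behind them were recovered from the values. Libraries held 6.24e+06 to 2.24e+07 listed reads in whole tissue and 5.31e+06 to 1.24e+07 in cardiomyocytes. The median number of reads per whole tissue library was 10 for ENSOARG00000015333, 22.5 for ENSOARG00000014321 and 43 for ENSOARG00000010633, and in cardiomyocytes it was 5.5, 10.5 and 26. The lowest values rest on a few reads and carry the largest counting error. Comparisons of transition and of chronic sheep with control share the same control libraries, and their values are given side by side only.

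ENSOARG00000015333 had the widest range in whole tissue. In the left appendage of control sheep it had 4 reads in S3 (log2 CPM of −1.49) and 0 reads in S4 (−4.03) and C1 (−3.81), where a count of 0 allows up to 0.368 CPM and 0.428 CPM (3 reads, covering counting error only). In the left appendage of transition sheep it had 172 reads in D24 (4.26), 77 in D27 (3.30) and 40 in D30 (2.32). In chronic sheep the left appendage had 27 reads in D16 (1.77), 7 in D15 (0.15) and 19 in D19 (1.18). The 3 states of the left appendage did not overlap: transition was highest, chronic intermediate and control lowest. The share of all genes with this order was not counted. Left control and left transition values entered the choice of the genes, so nothing is read from the order.

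The right appendage of the same sheep showed no such order for ENSOARG00000015333. Control values there were −0.49 in S3, 0.44 in S4 and 0.78 in C1, transition values were −0.19 in D24, −0.66 in D27 and 0.21 in D30, and chronic values were 0.52 in D16, −0.69 in D15 and 0.81 in D19. These 9 right values, from 4 to 20 reads each, overlapped between all states. They lay above all left control values and below all left transition values, and overlapped with the left chronic values. How many of all genes are placed in this way was not counted. By group mean of log2 CPM the order was left transition (3.29 ± 0.97, SD, n = 3), left chronic (1.04 ± 0.82), right control (0.24 ± 0.66), right chronic (0.21 ± 0.80), right transition (−0.21 ± 0.43) and left control (−3.11 ± 1.41), in which the 4 middle groups overlapped with one another.

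ENSOARG00000014321 followed a similar order over a narrower range. Its left control values were −0.75 in S3 (7 reads), 0.22 in S4 (9 reads) and 0.28 in C1 (8 reads). Left transition values were 3.08 in D24 (76 reads), 3.41 in D27 (83 reads) and 2.21 in D30 (37 reads). Left chronic values were 1.97 in D16 (31 reads), 1.20 in D15 (15 reads) and 1.18 in D19 (19 reads), above every left control and below every left transition value.

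In the right appendage ENSOARG00000014321 lay between 1.13 and 1.62 in control, 0.84 and 1.65 in transition and 0.66 and 1.83 in chronic sheep, and the 3 states overlapped. Left transition (mean 2.90 ± 0.62, SD, n = 3) stood above all other groups without overlap. The share of all genes with this separation, or with the order of the left groups, was not counted, so nothing is read from it. Left chronic (1.45 ± 0.45), right control (1.43 ± 0.26), right chronic (1.41 ± 0.64) and right transition (1.16 ± 0.43) overlapped, and left control (−0.09 ± 0.58) was lowest.

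ENSOARG00000010633 had its highest group mean in the right appendage of control sheep, where S3 held the highest single value. Right control values were 4.35 in S3 (243 reads), 3.03 in S4 (63 reads) and 2.64 in C1 (52 reads), while the left appendage of the same sheep had 1.01 in S3 (25 reads), 0.73 in S4 (13 reads) and 0.58 in C1 (10 reads). Left transition values were 3.10 in D24 (77 reads), 3.62 in D27 (96 reads) and 2.25 in D30 (38 reads), and left chronic values were 2.59 in D16 (48 reads), 1.60 in D15 (20 reads) and 1.92 in D19 (32 reads). Left transition and left chronic sheep thus overlapped for this gene, and both stood above left control. All left chronic values were above all left control values for 14.4% of the 12333 genes. The share with left transition above left control was not counted. Left control and left transition values entered the choice of the gene, so nothing is read from this separation.

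Right transition values of ENSOARG00000010633 were 2.80 in D24, 2.33 in D27 and 2.26 in D30, and right chronic values were 3.19 in D16, 2.29 in D15 and 2.21 in D19. By group mean the order was right control (3.34 ± 0.90, SD, n = 3), left transition (2.99 ± 0.69), right chronic (2.56 ± 0.54), right transition (2.46 ± 0.30), left chronic (2.04 ± 0.51) and left control (0.77 ± 0.22). Of these, left control overlapped with no other group, and left chronic lay below right control without overlap, for which the share of all genes was not counted. Each other pair of groups overlapped.

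**Figure D1:**
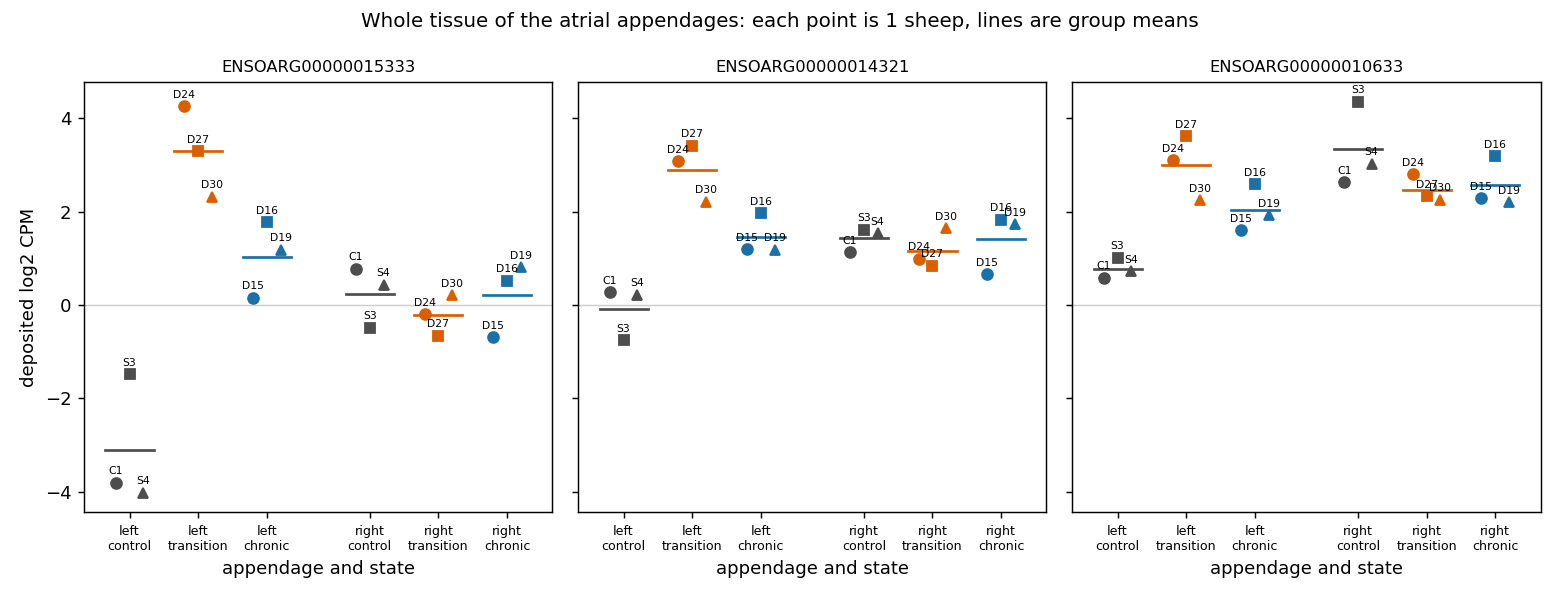
Deposited log2 CPM of the 3 genes in whole tissue (vertical axis), by appendage and state (horizontal axis); each point is 1 sheep and each line is a group mean of 3 sheep. Left control is the lowest group in each panel, left transition is the highest for ENSOARG00000015333 and ENSOARG00000014321, and right control is the highest for ENSOARG00000010633.

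The feature shared by the 3 genes was a low left control group. For each of them the 3 left control values lay below all 15 other whole tissue values, which was so for 124 of the 12333 genes (1.01%). The low left control values enter the comparison that chose the genes, so nothing is read from this count. Pooled over the 3 sheep of each group, right control exceeded left control 7.91-fold for ENSOARG00000015333 (95% interval from counting error 2.81 to 30.8), 3.13-fold for ENSOARG00000014321 (1.96 to 5.18) and 7.37-fold for ENSOARG00000010633 (5.45 to 10.2). These intervals cover counting error only and not the spread between sheep.

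Pooled reads of left transition exceeded those of left control 80.4-fold for ENSOARG00000015333 (95% interval from counting error 31.1 to 297), where the control group held 4 reads in all. The ratio was 9.09 for ENSOARG00000014321 (5.93 to 14.5) and 4.89 for ENSOARG00000010633 (3.56 to 6.84). The ratio of left chronic to left control was 15.8, 3.22 and 2.48 in the same order. On the log2 scale, the fitted transition minus control difference in the left appendage was 6.40 ± 0.74 (SE), 2.99 ± 0.44 and 2.22 ± 0.42, which placed the genes at rank 2, 25 and 63 of 12333 by size of increase. All 3 were among the 131 genes (1.06%) called higher there. ENSOARG00000010633 left that list without D24, D27 or S4, its adjusted p by limma reaching at most 0.097 over the 6 fits that each left out 1 sheep.

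In left chronic tissue the 3 genes were also above left control, so they are not described here as rising only in the transition state, but as genes with a left to right difference in the transition change. The fitted chronic minus control difference was 4.15 ± 0.74 (SE) for ENSOARG00000015333 (limma adjusted p = 0.0042), 1.54 ± 0.44 for ENSOARG00000014321 (limma adjusted p = 0.0442) and 1.26 ± 0.42 for ENSOARG00000010633 (limma adjusted p = 0.0725). Among all genes, 4.43% were called higher in that comparison, and ENSOARG00000010633 was not. The call for ENSOARG00000014321 was lost in each fit that left out C1, D16, D19, S3 or S4, with the adjusted p up to 0.168. That for ENSOARG00000015333, whose left control values include counts of 0, was lost when 10 CPM were added before the logarithm (0.267, limma adjusted p = 0.327). Every left chronic sheep was above every left control sheep for each of the 3 genes, as for 14.4% of the 12333 genes. This comparison uses the same low left control libraries that entered the choice of the genes, so its values are a description and support no rise in the chronic state.

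In the right appendage the fitted transition minus control difference was −0.46 for ENSOARG00000015333, −0.27 for ENSOARG00000014321 and −0.88 for ENSOARG00000010633, where 0.624% of genes were called. The chronic minus control difference was −0.03, −0.02 and −0.78, where 1.26% of genes were called. None of the 3 genes was called in either comparison.

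The difference between the sides in the transition change, the quantity that chose the genes, was 6.86 ± 0.88 (SE) for ENSOARG00000015333, 3.26 ± 0.53 for ENSOARG00000014321 and 3.09 ± 0.50 for ENSOARG00000010633. The number of genes past the threshold in this comparison rested on single sheep. It was 0 without C1, S4, D24 or D27, and 16 without D30. Over the 6 fits that each left out 1 sheep, the difference stayed between 6.24 and 8.03, 2.83 and 3.85, and 2.71 and 3.36 for the 3 genes. Its limma adjusted p was below 0.05 in only 2 of the 6 fits for ENSOARG00000015333 and in only 1 of 6 for each of the other genes.

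Within each sheep, the left appendage was below the right in all 3 control animals for all 3 genes. The left minus right difference in control sheep was −1.0, −4.46 and −4.59 log2 units for ENSOARG00000015333 in S3, S4 and C1. It was −2.37, −1.31 and −0.85 for ENSOARG00000014321, and −3.34, −2.30 and −2.05 for ENSOARG00000010633. In transition sheep D24, D27 and D30 the difference was 4.45, 3.96 and 2.12 for ENSOARG00000015333, 2.09, 2.57 and 0.56 for ENSOARG00000014321, and 0.30, 1.29 and −0.01 for ENSOARG00000010633. ENSOARG00000015333 and ENSOARG00000014321 were thus higher on the left in each transition sheep, whereas ENSOARG00000010633 was higher on the left in D24 and D27 and at nearly the same level on both sides in D30. In chronic sheep the mean difference was 0.82 ± 0.44 (SD, n = 3), 0.04 ± 0.55 and −0.52 ± 0.21, between the means of control and transition sheep for each gene. The control and transition values of both sides entered the choice of the genes. The shares of all genes with these signs, or with this order of means, were not counted, so nothing is read from them.

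**Figure D2:**
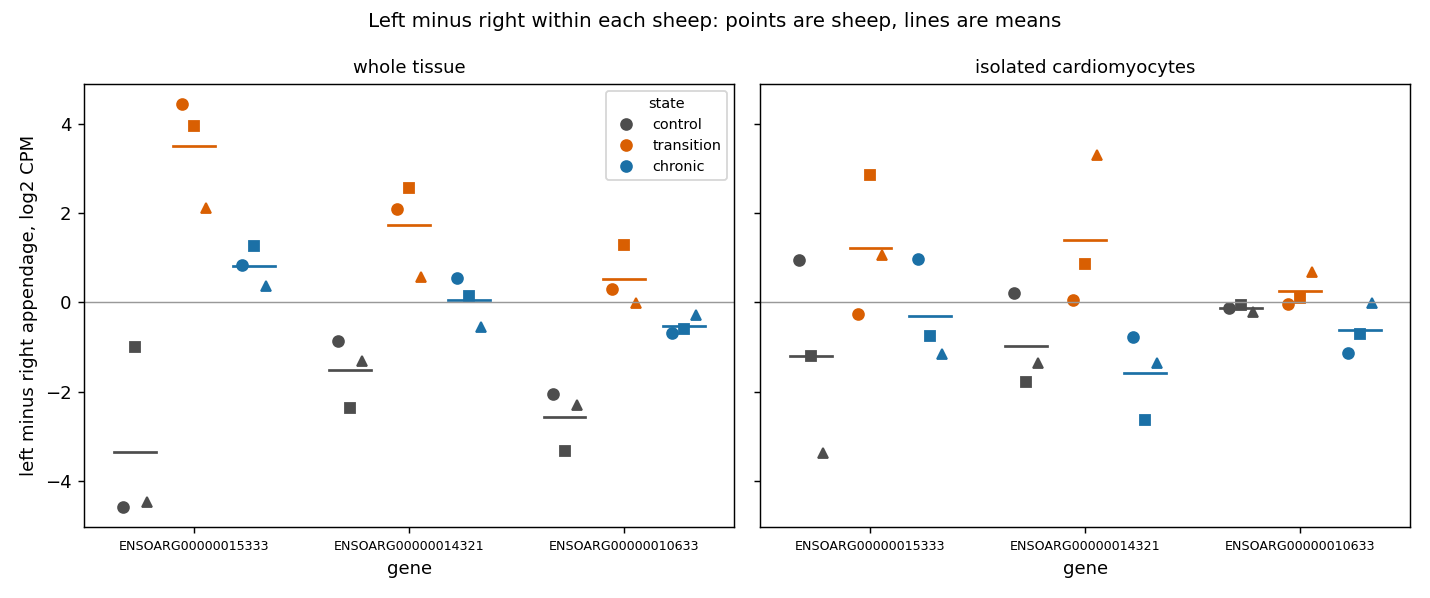
Left minus right appendage within each sheep, in log2 CPM (vertical axis), for the 3 genes in whole tissue (left panel) and isolated cardiomyocytes (right panel); points are sheep, marker shapes tell the sheep of a group apart, colours are states and lines are means of 3 sheep. In whole tissue all control points, which enter the comparison that chose the genes, lie below 0. In cardiomyocytes the control points of ENSOARG00000010633 lie between −0.21 and −0.06.

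The 3 genes were correlated with one another across the 18 whole tissue columns, with Pearson's r of 0.853 for ENSOARG00000015333 and ENSOARG00000014321, 0.639 for ENSOARG00000015333 and ENSOARG00000010633, and 0.702 for ENSOARG00000014321 and ENSOARG00000010633. Spearman's rank correlation over the same columns was 0.882, 0.457 and 0.585 in that order. These columns come from 9 sheep with 2 appendages each, the genes were chosen on them, and the values are a description. Over the 18 cardiomyocyte columns, which were not part of the comparison that chose the genes, r was 0.542, 0.479 and 0.649 in the same order. Without the 2 cardiomyocyte libraries of D24 it was 0.437, 0.309 and 0.579. In the 12 posterior left atrium columns r was 0.118 for ENSOARG00000014321 and ENSOARG00000010633.

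Among 12332 other genes, the one whose whole tissue pattern was most like that of ENSOARG00000015333 was ENSOARG00000009367 (r = 0.877 over 18 columns). Its mean log2 CPM was −2.34 in left control, 1.81 in left transition and 1.19 in left chronic tissue, and the transition values (1.16 to 2.74) overlapped with the chronic values (0.64 to 1.51). On the right its means were −0.38 in control, −0.17 in transition and 1.05 in chronic tissue, whereas those of ENSOARG00000015333 were 0.24, −0.21 and 0.21. For ENSOARG00000014321 the nearest gene was ENSOARG00000008368 (r = 0.913), with means of −2.16, 2.60 and −0.02 in left control, transition and chronic tissue. Its left control values ran from −4.66 to −0.33. On the right its means lay between 0.05 and 0.53 by state, with transition values from −1.30 in D24 to 1.31 in D30. For ENSOARG00000010633 the nearest gene was ENSOARG00000018248 (r = 0.875), which was more abundant. Its mean was 5.24 in left control, 6.54 in left transition and 6.17 in left chronic tissue, and 6.75, 6.83 and 6.68 in right control, transition and chronic tissue. In cardiomyocytes the same 3 pairs had r of 0.627, 0.528 and 0.194, and the last pair had −0.026 in the posterior left atrium.

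In isolated cardiomyocytes a single left library, that of transition sheep D24, held the highest value of each of the 3 genes. ENSOARG00000015333 had 74 reads there (log2 CPM of 2.82), against 9 in D23 (0.01) and 3 in D27 (−1.11). Its left control cardiomyocytes held 2 reads in S3 (−1.95), 0 in S4 (−4.10; a count of 0 allows up to 0.351 CPM) and 8 in C1 (−0.66), and left chronic cardiomyocytes held 9 in D16 (0.21), 6 in D19 (−0.00) and 4 in D20 (−0.69). The transition values overlapped with both groups: C1 of the controls and the 3 chronic sheep lay within their range, and S3 and S4 lay below it.

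ENSOARG00000014321 had 33 reads in left cardiomyocytes of D24 (1.67), 12 in D23 (0.41) and 5 in D27 (−0.46). Left control held 3 reads in S3 (−1.47), 6 in S4 (−0.40) and 21 in C1 (0.67), and left chronic held 8 in D16 (0.05), 2 in D19 (−1.38) and 3 in D20 (−1.06). The 3 left groups overlapped. In right cardiomyocytes the values lay between 0.29 and 1.27 in the control and chronic groups, and the transition group held 15 reads in D23, 13 in D24 and 0 in D27 (up to 0.444 CPM), so its low mean came from D27.

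ENSOARG00000010633 had 59 reads in left cardiomyocytes of D24 (2.50), 29 in D23 (1.64) and 13 in D27 (0.84). Left control held 28 reads in S3 (1.56), 25 in S4 (1.58) and 23 in C1 (0.80), and left chronic held 19 in D16 (1.25), 14 in D19 (1.16) and 28 in D20 (1.97). The gene was also high in right cardiomyocytes of D24 (40 reads, 2.40) and low in those of D27 (7 reads, 0.15), and on both sides its transition values overlapped with control.

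**Figure D3:**
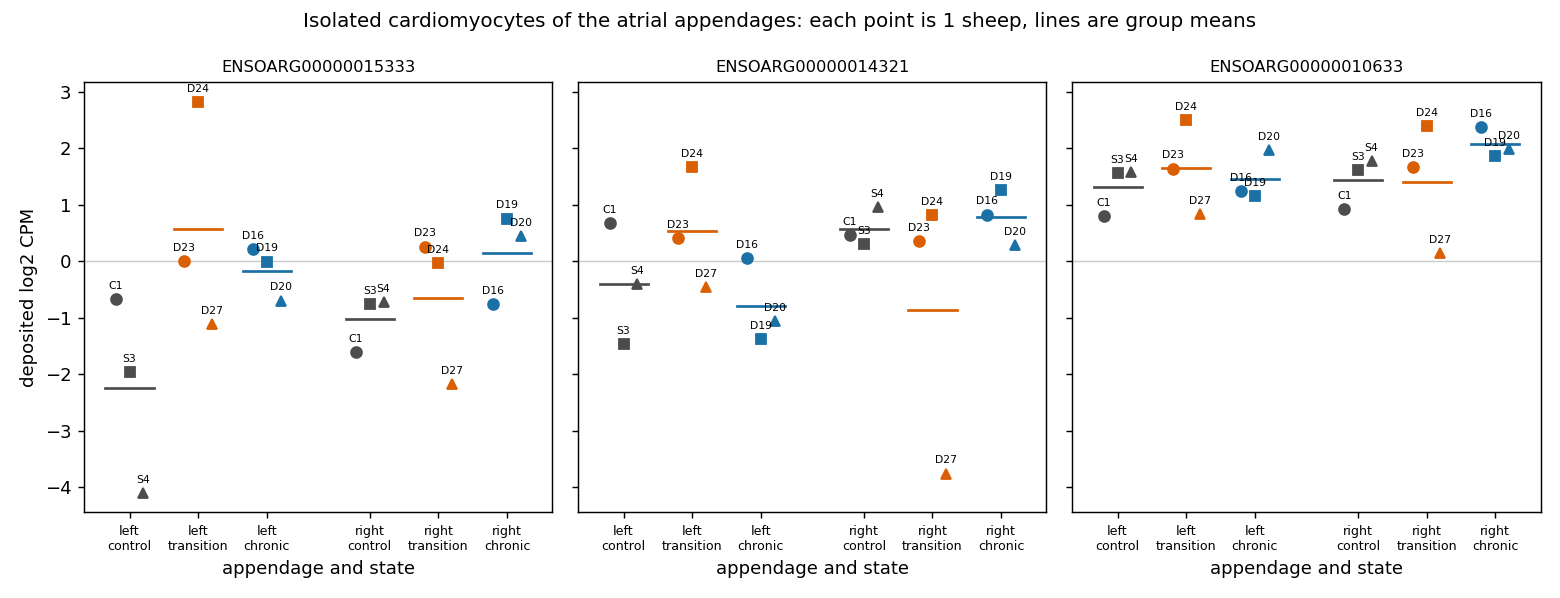
Deposited log2 CPM of the 3 genes in isolated cardiomyocytes (vertical axis), by appendage and state (horizontal axis); each point is 1 sheep and each line is a group mean of 3 sheep. The left library of D24 is the highest point of each panel, and the left transition group overlaps with left control in each.

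ENSOARG00000010633 was the only one of the 3 whose mean passed the filter on low values in cardiomyocytes (mean log2 CPM of at least 0), and it was not called in any comparison there by limma. The transition minus control difference in left cardiomyocytes was 0.35 ± 0.46 (SE; 95% interval −0.61 to 1.31), with a limma adjusted p of 0.714, where 3.40% of 12279 genes were called. Leaving out D24 gave −0.07 and leaving out D27 gave 0.76. The chronic minus control difference on the left was 0.15 (−0.82 to 1.11; limma adjusted p = 0.884), where 7.64% of genes were called.

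In right cardiomyocytes the transition minus control difference of ENSOARG00000010633 was −0.04 (95% interval −0.997 to 0.926; limma adjusted p = 0.983), where 0.652% of genes were called. The chronic minus control difference was 0.63 (−0.33 to 1.59; limma adjusted p = 0.448), where 5.16% were called. All 3 right chronic values (1.87 to 2.38) lay above all 3 right control values (0.93 to 1.78). The share of all genes with such a separation was not counted, so nothing is read from it.

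Between the 2 sides of the same sheep, ENSOARG00000010633 differed less in control cardiomyocytes than in control whole tissue, by value. Left minus right in control sheep was −0.06 in S3, −0.21 in S4 and −0.13 in C1, against −3.34, −2.30 and −2.05 in whole tissue of the same sheep. Averaged over the 3 states, left minus right was −0.17 ± 0.19 (SE; limma adjusted p = 0.578), where 23% of genes were called. The difference between the sides in the transition change was 0.38 ± 0.47 (95% interval −0.61 to 1.37; limma adjusted p = 0.927), against 3.09 in whole tissue. In that cardiomyocyte comparison limma called 0 genes (0%), 781 had an unadjusted p below 0.05, and limma with voom weights on the recovered reads also called 0. With a pseudocount of 10, limma called 1 gene. The 2 materials were normalised separately and share sheep, and the difference between them was not tested. The whole tissue values entered the choice of the gene. A smaller difference in another material was therefore likely in advance, and nothing is read from it.

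ENSOARG00000015333 and ENSOARG00000014321, with mean log2 CPM of −0.56 and −0.02 in cardiomyocytes, have values there only when no filter is applied, and neither was called. For ENSOARG00000015333 the transition minus control difference in left cardiomyocytes was 2.81 ± 1.04 (SE; 95% interval 0.61 to 5.01), with an unadjusted p of 0.0153 and a limma adjusted p of 0.146, where 3.17% of 13262 genes were called. Without D24 that difference was 1.69 (limma adjusted p = 0.490). The chronic minus control difference was 2.08 (limma adjusted p = 0.247), where 6.96% were called. On the right these differences were 0.38 (limma adjusted p = 0.920) and 1.18 (limma adjusted p = 0.570), where 0.603% and 4.64% of genes were called.

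For ENSOARG00000014321 the transition minus control difference was 0.94 (limma adjusted p = 0.608) in left and −1.44 (limma adjusted p = 0.560) in right cardiomyocytes, and the latter was 0.01 without D27, whose library held 0 reads. The chronic minus control difference was −0.40 on the left and 0.21 on the right. Left minus right over the 3 states was −0.39 for ENSOARG00000014321 (limma adjusted p = 0.523) and −0.10 for ENSOARG00000015333 (limma adjusted p = 0.901), where 22.0% of genes were called. The difference between the sides in the transition change was 2.43 ± 1.09 (SE) for ENSOARG00000015333 (unadjusted p = 0.0390, limma adjusted p = 0.767) and 2.38 ± 0.96 for ENSOARG00000014321 (unadjusted p = 0.0244, limma adjusted p = 0.751). Again 0 of 13262 genes were called by limma and 0 by limma with voom weights, against 1 with a pseudocount of 10. The 95% intervals of these differences were 0.14 to 4.73 and 0.35 to 4.41.

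Left cardiomyocytes of D24 and D27 had the lowest scores on the first principal component of the tested genes, which held 24.3% of the variance. Their scores were −42.3 and −58.9, and the other left cardiomyocyte libraries lay between −25.9 and 11.2. Right cardiomyocyte libraries lay between −24.8, in D27, and 40.5. The reads of the 3 genes in the left libraries were 74, 33 and 59 in D24 and 3, 5 and 13 in D27. The part of this difference between libraries in the values above was not tested.

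**Figure D4:**
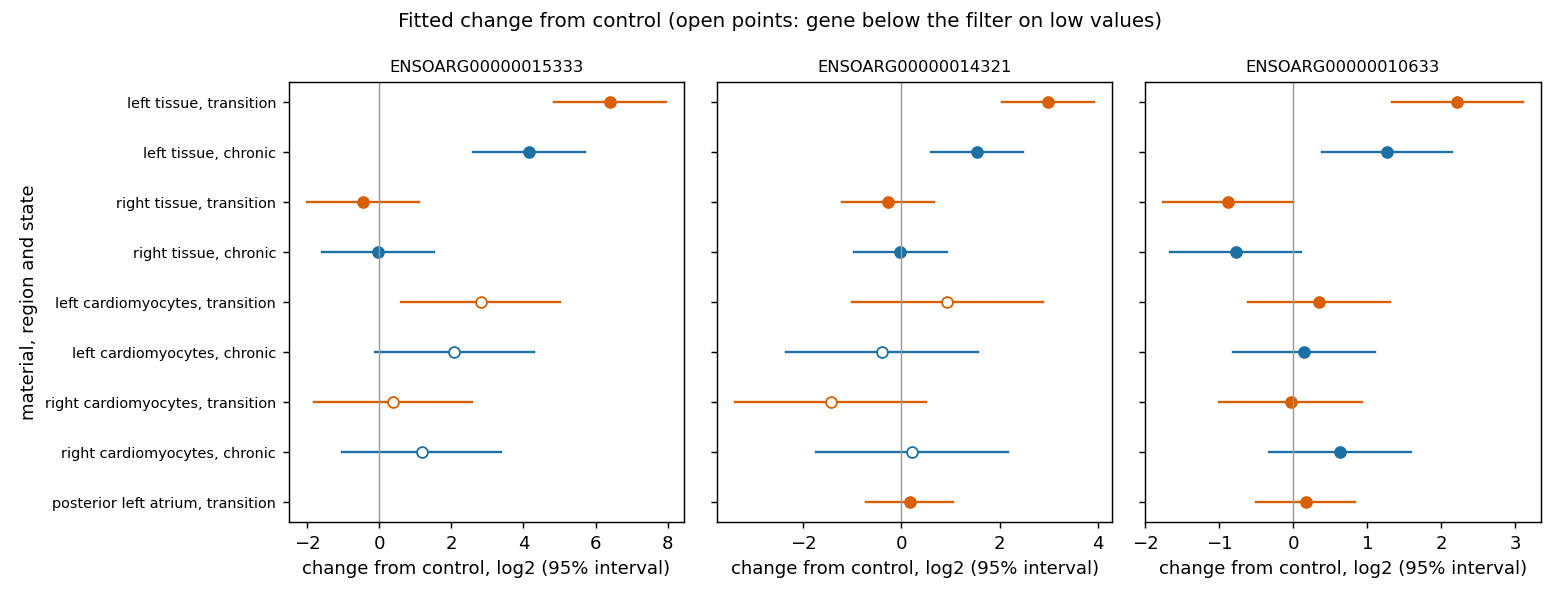
Fitted change from control on the log2 scale (horizontal axis, scaled separately for each gene) by material, region and state (vertical axis); points are limma estimates, bars are 95% intervals, and open points mark a gene below the filter on low values. The 3 left tissue transition estimates, which enter the comparison that chose the genes, are 6.40, 2.99 and 2.22, and the cardiomyocyte estimates of ENSOARG00000010633 lie between −0.04 and 0.63.

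In the posterior left atrium, the part of the left atrial wall that receives the pulmonary veins, neither listed gene was called. ENSOARG00000014321 had log2 values between −0.44 and 1.62 in 6 control sheep (median 0.84) and between 0.00 and 1.75 in 6 transition sheep (median 0.82). ENSOARG00000010633 lay between 1.33 and 3.18 in control (median 2.24) and between 2.09 and 3.10 in transition sheep (median 2.26). Control and transition overlapped for both genes. The transition minus control difference, with the set of sheep (G against S, C and D) as a term, was 0.16 ± 0.42 (SE; 95% interval −0.73 to 1.05) for ENSOARG00000014321, with a limma adjusted p of 0.832. For ENSOARG00000010633 it was 0.17 ± 0.31 (−0.50 to 0.83; limma adjusted p = 0.761). In this comparison 17.5% of 12035 genes were called.

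The G sheep gave no appendage samples and so stand apart from the sheep of the whole tissue comparison that chose the genes. Within them, transition minus control was −0.12 for ENSOARG00000014321 (exact two-sided permutation p = 0.857, 4 against 3 sheep) and −0.12 for ENSOARG00000010633 (exact permutation p = 0.8). The smallest p this design allows is 0.0571. In the S, C and D sheep the difference was 0.57 for ENSOARG00000014321 (exact permutation p = 0.6, 2 against 3 sheep) and 0.58 for ENSOARG00000010633 (exact permutation p = 0.4), with a smallest possible p of 0.2. Adjusted over these 4 comparisons, the p was 0.857 for each.

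The sheep that gave both regions can be set side by side, although the tables were normalised separately and a level set across them is only a rough guide. The left appendage values entered the choice of the genes, so nothing is read from a difference between the regions. For ENSOARG00000010633 the posterior left atrium of control sheep S3, S4 and C1 had log2 values of 2.44, 2.03 and 1.58, against 1.01, 0.73 and 0.58 in their left appendage. In transition sheep D24 and D27 it had 3.10 and 2.09, against 3.10 and 3.62. For ENSOARG00000014321 the posterior left atrium had 1.31, −0.44 and 0.65 in the 3 control sheep and 1.01 and 1.15 in D24 and D27, against 3.08 and 3.41 in the left appendage of the latter.

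**Figure D5:**
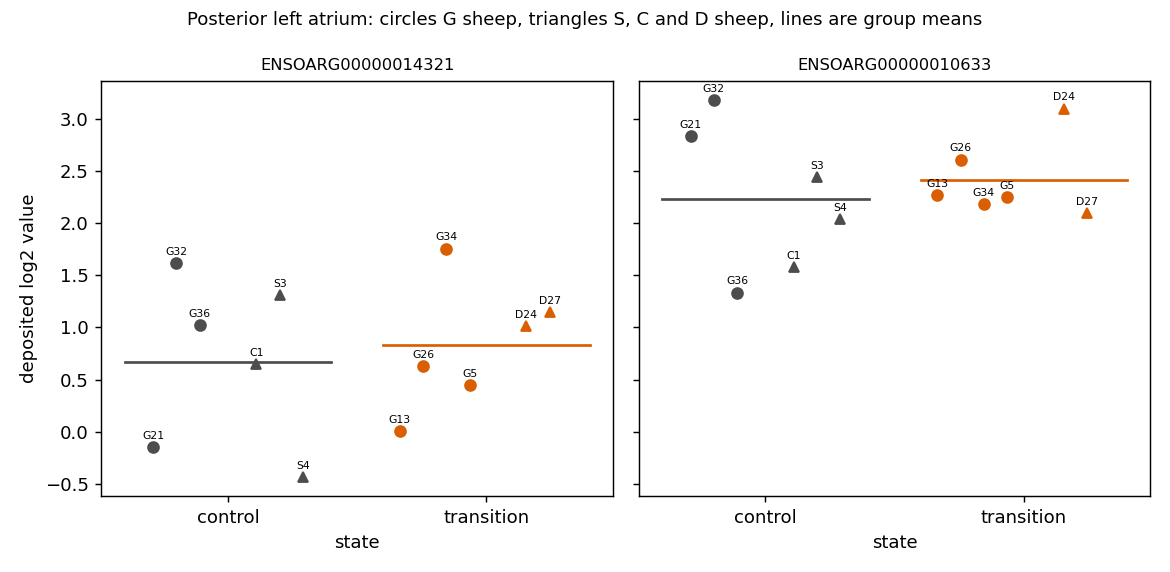
Deposited log2 values of the 2 listed genes in the posterior left atrium (vertical axis) by state (horizontal axis); circles are G sheep, triangles are S, C and D sheep, and lines are means of 6 sheep. Control and transition overlap in both panels, with control values of ENSOARG00000014321 from −0.44 to 1.62.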

How the data were processed

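Libraries were made with the Illumina NEBNext Ultra kit, per the labels' protocols. Tools named in the submitters' processing notes are limma, RSEM, cutadapt and bcl2fastq. Aligner and genome build: not given in the sources used here. Log2 values were deposited by the authors in 3 tables with 1 column per sheep and region, so the technical runs were merged before deposit; 0 columns had no matching sample. In whole tissue and cardiomyocytes all values (237366 and 238716) gave whole reads within 0.05 reads. In the posterior left atrium 10.7% of low values did, so a further step, not recorded in the sources used here, was applied and the depth is unknown.

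Here limma 3.58.1 (R 4.3.3, eBayes with trend) was fitted to all genes with a mean log2 value of at least 0 (12333, 12279 and 12035), with 6 group means and sheep as a random effect in the appendages (correlation 0.294 and 0.470), since left and right samples come from the same sheep. In the posterior left atrium the terms were state and set of sheep. Benjamini-Hochberg adjustment ran over each table's tested genes (threshold 0.05). The transition comparisons in left cardiomyocytes and in the posterior left atrium were tried on simulated data that held no sheep effect. Whole tissue and the comparisons between sides were not tried in this way. Labels do not number replicates across states, and p-values measure the spread between sheep, which limma moderates over all genes. For comparisons of left with right this is the spread between sheep of the left minus right difference, taken through the shared correlation. The members, gene lists and comparisons were chosen with earlier results of these data known. The named genes are the members and, for each, the gene with the highest Pearson correlation over whole tissue columns; only the first is named since identifiers carry no names. Alternatives were no filter, a pseudocount of 10, median centring, each sheep left out, no random effect for sheep, the set term left out, and voom on recovered reads. Another 2 were added after seeing the data: voom with no filter, and each appendage fitted alone.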

Additional observations from a re-analysis of the deposited data

How the results depend on the processing

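The 20 tested values of the 3 genes in cardiomyocytes and the posterior left atrium were recomputed under 237 alternatives in all. None of these passed the threshold, the lowest adjusted p by limma being 0.0989, and 22 changed sign. The transition minus control difference of ENSOARG00000010633 in right cardiomyocytes became 0.0327 with a pseudocount of 10, 0.0570 with voom on recovered reads and 0.0654 with voom and no filter, and left minus right of ENSOARG00000015333 became 0.0505 with a pseudocount of 10; the cause was not tested. The other changes of sign came when 1 sheep was left out. For ENSOARG00000010633 the left-out values ranged from −0.0712 to 0.760 for transition and from −0.109 to 0.297 for chronic in left cardiomyocytes, from −0.532 to 0.593 for transition in right cardiomyocytes, and from −0.0841 to 0.402 in the posterior left atrium. For ENSOARG00000014321 they ranged from −0.934 to 0.137 for left chronic, from −0.0209 to 0.467 for right chronic and from −2.28 to 0.00701 for right transition cardiomyocytes, and from −0.0518 to 0.414 in the posterior left atrium. For ENSOARG00000015333 they ranged from −0.459 to 0.260 for left minus right and from −0.0743 to 1.14 for right transition cardiomyocytes.

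Without the replicate block, that is without pairing the 2 sides of a sheep, the transition difference of ENSOARG00000010633 in left cardiomyocytes stayed at 0.348 and no call on the 3 genes in cardiomyocytes changed. In whole tissue the number of genes with a left to right difference in the transition change fell from 3 to 1 without the block, to 1 with voom and to 0 with voom and no filter or a pseudocount of 10. With a pseudocount of 10 the left transition difference of ENSOARG00000010633 was 0.641 (limma adjusted p = 0.109), and with voom it was 2.21 (limma adjusted p = 0.0802). The left transition difference of ENSOARG00000015333 fell from 6.40 to 1.02 with a pseudocount of 10 (limma adjusted p = 0.00337). The left chronic difference of ENSOARG00000014321 had a limma adjusted p of 0.0962 with voom and 0.0515 with the left appendage fitted alone. For ENSOARG00000015333 the left chronic difference was 0.267 with a pseudocount of 10 (limma adjusted p = 0.327) and 4.03 with voom and no filter (limma adjusted p = 0.109). Counts of called genes also moved by over 1.5 times: left minus right in cardiomyocytes from 2826 to 773 and right transition cardiomyocytes from 80 to 52 without the block, and, with each appendage fitted alone, right transition cardiomyocytes to 9, right chronic cardiomyocytes from 633 to 159, right transition tissue from 77 to 14 and right chronic tissue from 155 to 36. Leaving out 1 sheep moved the count in whole tissue from 184 to as few as 33 for left transition, from 924 to as few as 440 for left chronic, from 77 to as few as 19 for right transition and from 155 to between 38 and 429 for right chronic. In cardiomyocytes it moved the count from 418 to between 90 and 1306 for left transition, from 938 to as few as 320 for left chronic, from 80 to between 9 and 309 for right transition, from 633 to as few as 99 for right chronic, from 2826 to as few as 1804 for left minus right, and from 0 to as many as 3 for the difference between the sides in the transition change.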
